A study of Mus musculus with 10 samples.

Results

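The 57 genes described here are the ADAM, ADAMTS and MMP proteases and the TIMP inhibitors that carry a symbol of these families in the deposited table of normalized counts, which lists 21862 genes. They are 18 ADAM, 19 ADAMTS, 16 MMP and 4 TIMP genes. A further 22 annotated genes with such names, among them Mmp1a, Mmp7, Mmp8 and Mmp20, fell outside the table, and none of them had more than 7 counts over the 10 libraries. Their RNA was measured by polyA RNA sequencing of primary cortical neurons, cells taken from wild-type C57BL/6J mouse embryos (E16.5) and grown in culture with 0.5 µM AraC, a drug that kills dividing cells. All groups had received a lentivirus. The groups are H2BE+BDNF (virus carrying the histone variant H2BE from a constitutive promoter, and BDNF), H2BE (that virus alone), BDNF (control virus and BDNF) and Control (control virus alone). RNA was taken 24 h after the neurotrophin BDNF was added or withheld, which lets the BDNF response be compared between the viruses.

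Metalloproteases of these families cut proteins outside the cell. ADAM proteins sit in the membrane and release the outer parts of growth factors, adhesion molecules and receptors, and a few have lost catalysis and act as receptors. ADAMTS proteins are secreted and cut matrix proteoglycans and procollagens. MMPs are secreted or held at the membrane, most are made as inactive precursors, and TIMP proteins block their active site. In the brain they are known for remodelling of the matrix around synapses and for shedding of synaptic proteins.

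The 10 libraries held 5058074 to 14142545 counts. Replicate 3 of Control and of BDNF exceeded replicate 1 at 0 of 48526 genes, with 73.7% and 61.9% of its counts, so each pair was treated as 1 sample, and every group has n = 2. The labels do not say whether samples are separate cultures, so p-values speak of the spread among these samples alone, which may be technical. H2bc21, the gene of H2BE, had 42.6 and 35.6 CPM in H2BE and 5.32 and 5.22 CPM in Control. The 6 neuron markers listed summed to 6440 to 6790 CPM in the 8 samples, but moved apart with BDNF. Map2 was higher and Tubb3, Rbfox3 and Stmn2 were lower under both viruses, and Syt1 was lower in H2BE+BDNF than in H2BE. Summed astrocyte markers lay between 55.7 and 75.1 CPM in 7 samples and at 99.9 CPM in BDNF replicate 2. The 8 microglial markers summed to 24.0 to 24.9 CPM in BDNF and 10.6 to 11.1 CPM in Control, and to 23.0 to 23.6 CPM in H2BE+BDNF and 5.34 to 8.01 CPM in H2BE. Most of this gap was in Cd68, a lysosomal gene called higher under both viruses (log2 fold changes 1.84 and 2.38, adjusted p = 1.82e-07 and 1.67e-07). Aif1 was also called higher in H2BE+BDNF than in H2BE (2.95, adjusted p = 0.0214). It had 1.55 and 1.15 CPM in H2BE+BDNF and 0.141 and 0.198 CPM in H2BE, below 3 counts in each H2BE library. It was not called in BDNF against Control (-0.75, adjusted p = 0.341), and C1qa and C1qb were called under neither virus. The 8 oligodendrocyte-lineage markers summed to 76.2 to 84.3 CPM in BDNF and 43.3 to 46.1 CPM in Control, and to 83.5 to 87.3 CPM in H2BE+BDNF and 47.1 to 51.3 CPM in H2BE, with Mbp the single called gene of 7 tested (1.34 and 1.26, adjusted p = 1.1e-08 and 8.44e-08). Tmem119 of microglia, Sox10 of oligodendrocytes and Cldn5 of endothelial cells were at most 0.144, 0.288 and 0.522 CPM in any sample. Other genes of these lists were higher. C1qa reached 2.96 CPM (Control replicate 2), Olig1 14.1 CPM (BDNF replicate 2) and Flt1 2.09 CPM (Control replicate 2). The 6 neural progenitor markers summed to 226 to 241 CPM in BDNF and 115 to 118 CPM in Control. They summed to 235 to 239 CPM in H2BE+BDNF and 105 to 107 CPM in H2BE. Most of this gap was in Vim, at 169 and 179 CPM in BDNF and 67.1 and 59.8 CPM in Control. Under the H2BE virus Vim had 188 and 177 CPM with BDNF and 59.2 and 54.8 CPM without it. Vim was called higher under both viruses (1.46 and 1.67, adjusted p = 1.28e-10 and 1.3e-10). Pax6 and Hes5 were called under neither virus. Nes (0.57) and Sox2 (0.43) were called higher in BDNF than in Control, and Eomes (-0.99) lower. The part of these markers in the results with BDNF was not tested. In bulk RNA, fewer cells of a type and less RNA per cell cannot be told apart.

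Levels are CPM, counts of a gene relative to the library's total, scaled by edgeR's TMM factors. To compare genes with each other, CPM was divided by the length of the annotated exons. On this scale Timp2, an inhibitor that also presents pro-MMP2 to membrane-type MMPs, was the most abundant of the 57 genes at 110 CPM per kb over all samples. Mmp24 (MT5-MMP), a membrane protease of neurons that cuts N-cadherin, followed at 44.1 CPM per kb. Adamts1, a secreted aggrecanase, had 20.5 CPM per kb, Adam10, the α-secretase of APP and the Notch sheddase, 18.5 CPM per kb, and the glycolipid-anchored Mmp17 15.4 CPM per kb. The gelatinases Mmp2 and Mmp9 were far down the order, at 1.04 and 0.361 CPM per kb. Of the 57 genes, 41 passed the filter on low counts and were tested. The other 16 had between 6 and 47 counts over the 8 distinct libraries: 7 ADAM genes, Adamts14, Adamts19, Mmp10, Mmp11, Mmp12, Mmp13, Mmp25, Mmp28 and Timp1.

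**Figure D1:**
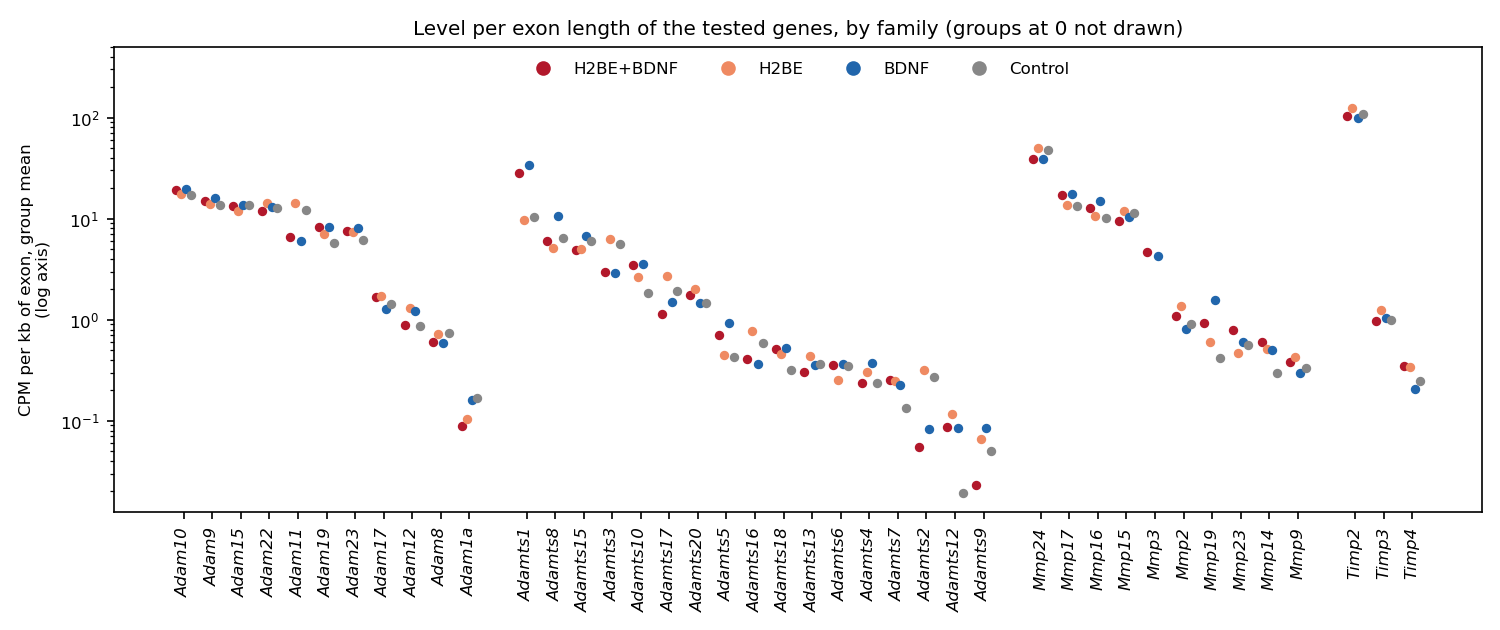
Group mean level of the 41 tested genes in CPM per kb of exon (log axis), by family and in falling order, with 1 point per group (n = 2 samples each). Timp2 and Mmp24 stand above all others, and Mmp3 has points in the BDNF-treated groups and none in H2BE or Control, where it had 0 counts.

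With BDNF the ADAMTS share of the summed level was larger and the TIMP share smaller. ADAMTS genes made up 18.5% of the summed CPM per kb in BDNF and 11.5% in Control, and 15.6% in H2BE+BDNF and 10.7% in H2BE. Most of this was Adamts1: without it the ADAMTS genes summed to 30.3 CPM per kb in BDNF and 26.1 in Control, and to 23.3 in H2BE+BDNF and 27.3 in H2BE, lower with BDNF under the H2BE virus. TIMP genes, nearly all of it Timp2, made up 29.5% in BDNF and 34.9% in Control, and 31.7% in H2BE+BDNF and 36.8% in H2BE. The ADAM share stayed between 25.6% and 26.7% and the MMP share between 26.2% and 26.9% in the 4 groups. These shares are group means and were not tested.

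**Figure D2:**
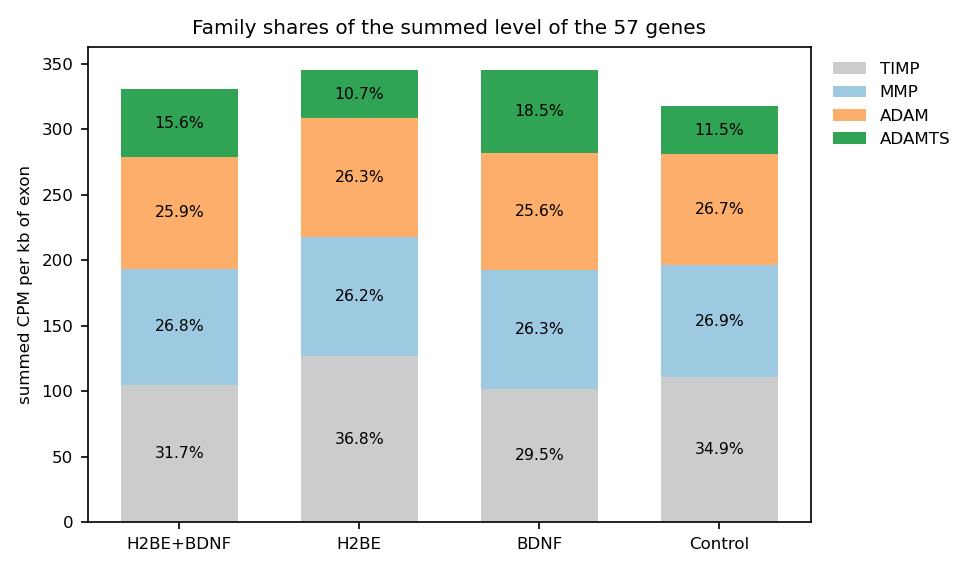
Summed level of all 57 genes in CPM per kb of exon, stacked by family, with each family's share of the group's sum printed in its block (group means, n = 2 samples each). The ADAMTS block is larger in H2BE+BDNF (15.6%) than in H2BE (10.7%), and in BDNF (18.5%) than in Control (11.5%).

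With BDNF, 19 of the 41 tested genes were called under the control virus and 13 under the H2BE virus, at an adjusted p of 0.05 (edgeR quasi-likelihood test, Benjamini-Hochberg adjustment over 13452 genes). Under the control virus 13 were higher and 6 lower in BDNF than in Control, against a background of 31.4% of all tested genes called, 16.8% higher and 14.7% lower. Under the H2BE virus 5 were higher and 8 lower in H2BE+BDNF than in H2BE, with 25.9% of all tested genes called, 13.5% higher and 12.4% lower. The median log2 fold change of the tested members was 0.16 in BDNF against Control and -0.11 in H2BE+BDNF against H2BE, beside -0.0098 and -0.0001 over all tested genes. Of the called genes 11 were called in the same direction under both viruses, and the matching share over all genes was not counted. Mmp3, Adamts1, Adamts10, Mmp16 and Mmp17 were higher with BDNF in both, and Adam11, Adamts2, Adamts3, Adamts17, Mmp24 and Timp2 lower. Another 8 were called only under the control virus, all higher with BDNF, and 2 only under the H2BE virus, both lower. For 1 of these 10, Adam12, the test of the difference between the responses passed. The share of all genes called under 1 virus only was not counted. The libraries tested held 5682480 to 14142545 counts under the control virus and 5058074 to 8357276 under the H2BE virus. The part of depth in this split was not tested. Without Control replicate 1 the count under the control virus was 11, and without H2BE replicate 2 the count under the H2BE virus was 8.

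**Figure D3:**
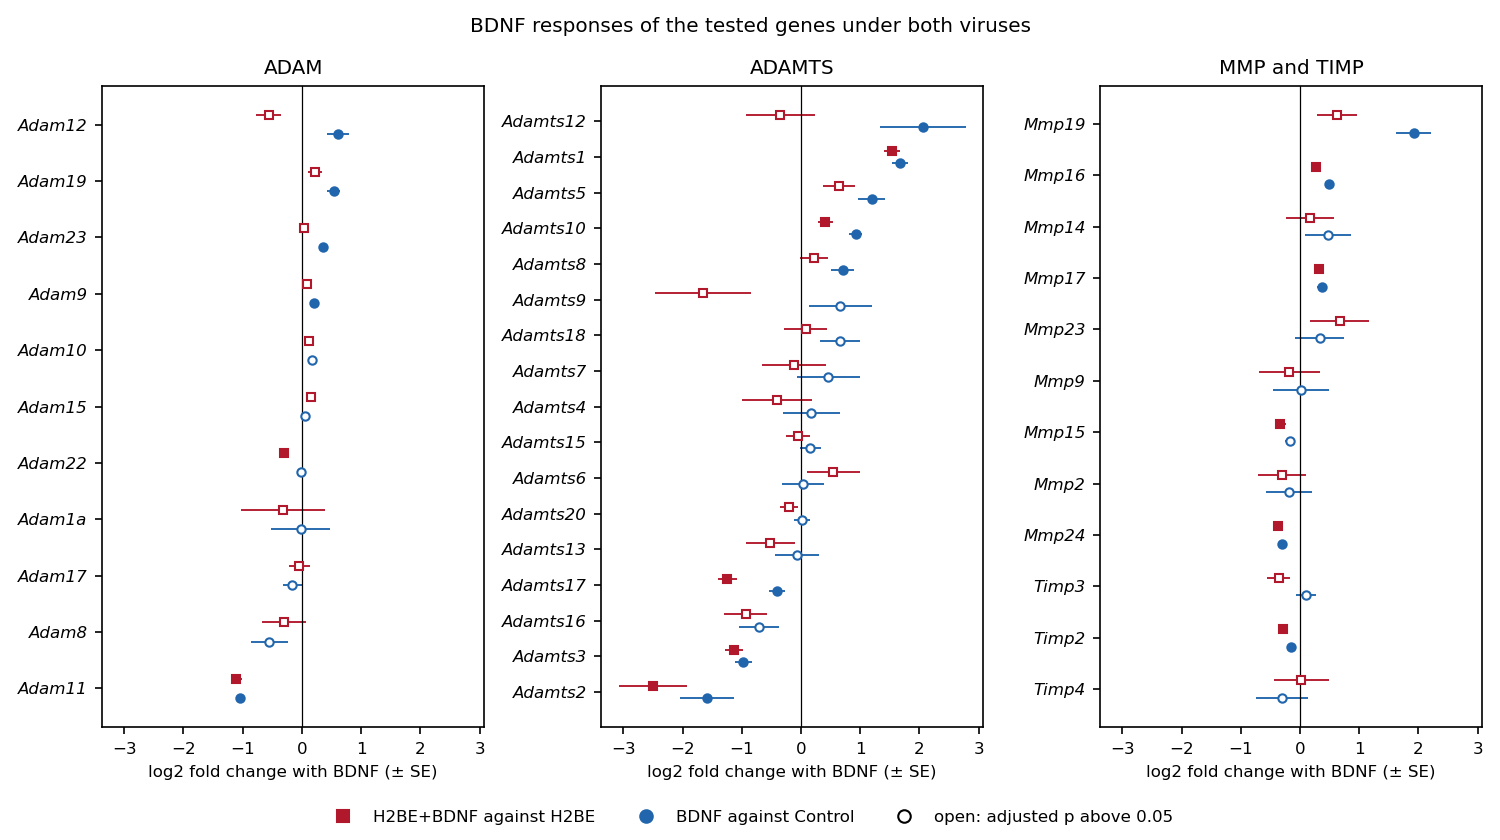
Log2 fold change with BDNF (± SE) of 40 tested genes, in H2BE+BDNF against H2BE (squares) and BDNF against Control (circles), n = 2 samples per group, filled where the adjusted p was at most 0.05. Mmp3 is not drawn, since its level without BDNF was 0 counts. Adamts1, Adamts10, Mmp16 and Mmp17 are filled to the right of 0 under both viruses and Adam11, Adamts2, Adamts3, Adamts17, Mmp24 and Timp2 to the left.

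Mmp3 (ENSMUSG00000043613) encodes stromelysin-1, a secreted protease that cuts many matrix proteins and activates other pro-MMPs. It had 82 and 106 counts in the BDNF libraries and 0 and 0 in the Control libraries. It had 68 and 62 counts in the H2BE+BDNF libraries and 0 and 0 in the H2BE libraries. Every library with BDNF held Mmp3 reads, and no library without BDNF held any. In CPM the levels were 6.74 and 8.67 in BDNF, and 8.11 and 8.93 in H2BE+BDNF. Set against a floor of 3 counts over the group without BDNF, the CPM ratio of Mmp3 was 52.7 in BDNF against Control (adjusted p = 8.28e-08, edgeR). It was 34.4 in H2BE+BDNF against H2BE (adjusted p = 6.84e-07). These ratios leave out the counting error of the group with BDNF. Both calls were kept under every alternative run.

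Mmp3 lies in a cluster of 10 MMP genes on chromosome 9, which spans 427 kb (chr9:7272514-7699585, GRCm38, GENCODE M21). Mmp13, a collagenase, had 12 counts in BDNF and 0 in Control, and 5 in H2BE+BDNF and 0 in H2BE, summed over the libraries of each group. Against the same floor its CPM ratio was 3.36 in BDNF against Control and 1.32 in H2BE+BDNF against H2BE. With 12 and 5 counts these ratios are no lower bounds, since the counting error of the group with BDNF is left out. Mmp10 (stromelysin-2) had 16 counts in BDNF and 1 in Control, a CPM ratio of 13.4 (95% counting interval 2.09 to 564), and 12 counts in H2BE+BDNF and 5 in H2BE, a ratio of 1.91 (0.625 to 6.91). Mmp12, the macrophage elastase, did not share this pattern. It had 5 counts in BDNF and 19 in Control, but 19 in H2BE+BDNF and 4 in H2BE. These 3 genes fell under the filter on low counts, and the intervals cover counting error only. With the filter lifted, none of these 3 genes was called in H2BE+BDNF against H2BE. In BDNF against Control, Mmp10 (adjusted p = 0.0157) and Mmp13 (adjusted p = 0.0164) were then called higher. Mmp12 was called lower there (log2 fold change -2.11, adjusted p = 0.0302). Mmp12 was also called lower with only the groups compared (adjusted p = 0.0333) and without either H2BE library. The other 6 genes of the cluster, Mmp1a, Mmp1b, Mmp7, Mmp8, Mmp20 and Mmp27, had 2 counts in all over the 10 libraries, both in Mmp1b.

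**Figure D4:**
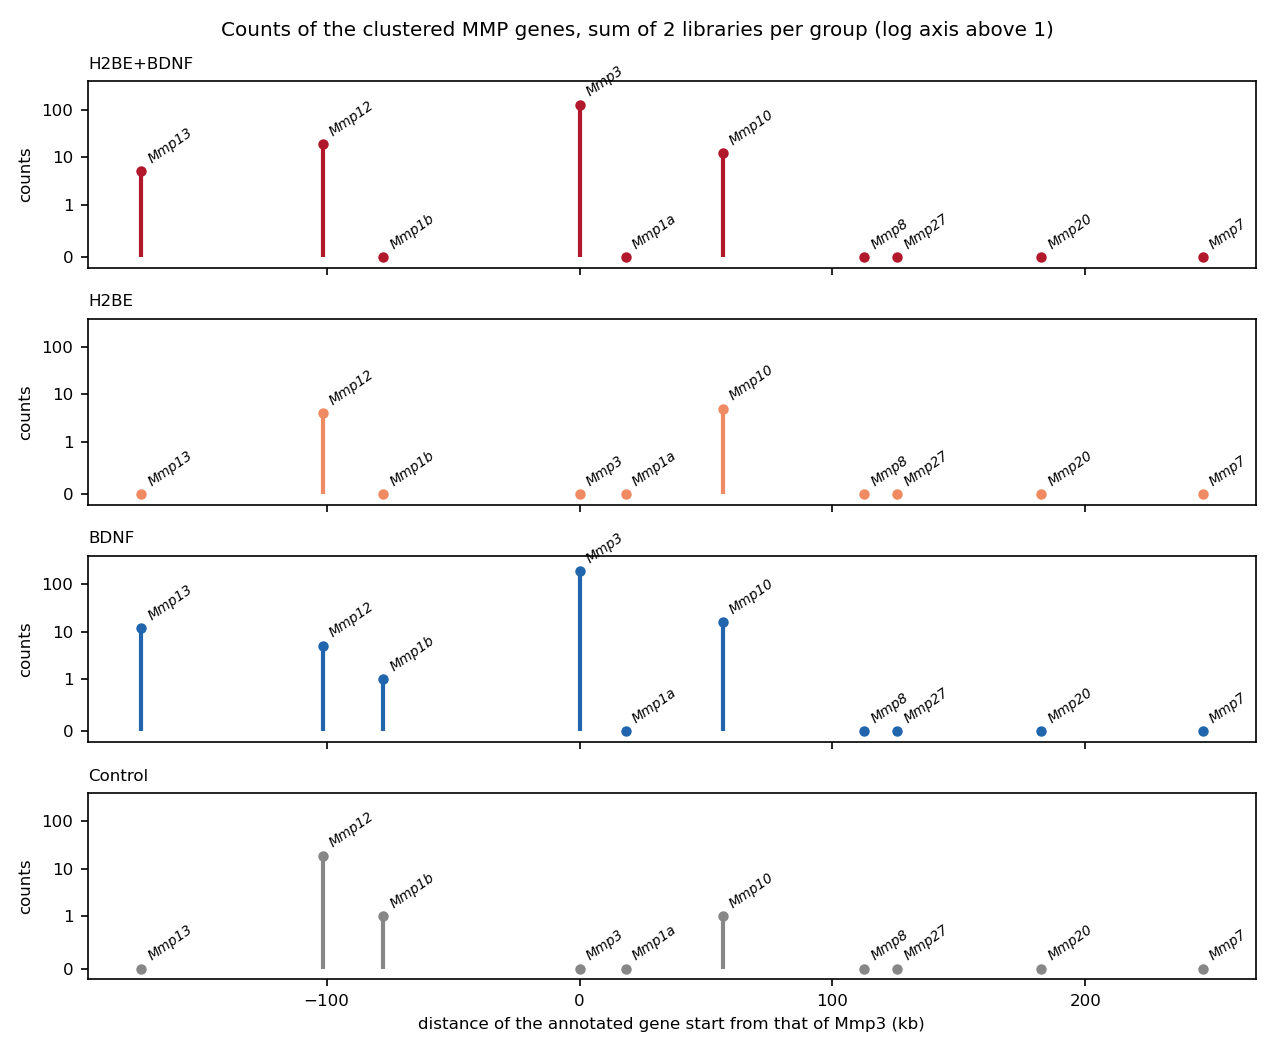
Counts of the 10 clustered MMP genes, summed over the 2 distinct libraries of each group (log axis above 1), against the distance in kb of each gene's annotated start from that of Mmp3, 1 panel per group. Mmp3 has 130 counts in H2BE+BDNF and 188 in BDNF and 0 in H2BE and Control, and Mmp13 shows counts in the same panels only.

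The promoter windows of Mmp3, Mmp10 and Mmp13, the clustered genes with more counts with BDNF, and of Adamts1, described next, are printed because their letters can be compared directly. Each is the 250 bases before the RefSeq start (GRCm38.p6, 5′ to 3′ on the gene's strand): chr9:7445572-7445821 (plus strand) for Mmp3, chr9:7502092-7502341 (plus) for Mmp10, chr9:7272264-7272513 (plus) for Mmp13 and chr16:85803114-85803363 (minus) for Adamts1. Capitals mark the AP-1 letters TGANTCA and the TATA letters TATAAA.
Mmp3: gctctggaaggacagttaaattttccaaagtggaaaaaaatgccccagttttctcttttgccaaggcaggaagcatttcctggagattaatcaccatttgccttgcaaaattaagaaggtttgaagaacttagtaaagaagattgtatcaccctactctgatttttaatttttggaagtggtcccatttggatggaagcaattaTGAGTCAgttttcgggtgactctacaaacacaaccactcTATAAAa
Mmp10: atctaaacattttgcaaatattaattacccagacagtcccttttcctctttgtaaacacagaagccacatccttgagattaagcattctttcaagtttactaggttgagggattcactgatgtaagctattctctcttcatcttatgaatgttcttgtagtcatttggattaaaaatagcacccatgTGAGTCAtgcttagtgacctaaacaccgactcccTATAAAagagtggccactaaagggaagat
Mmp13: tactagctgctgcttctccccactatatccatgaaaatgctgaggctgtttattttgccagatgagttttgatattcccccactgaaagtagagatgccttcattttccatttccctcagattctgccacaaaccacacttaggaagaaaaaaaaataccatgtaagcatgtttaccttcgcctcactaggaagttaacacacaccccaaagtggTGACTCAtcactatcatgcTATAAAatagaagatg
Adamts1: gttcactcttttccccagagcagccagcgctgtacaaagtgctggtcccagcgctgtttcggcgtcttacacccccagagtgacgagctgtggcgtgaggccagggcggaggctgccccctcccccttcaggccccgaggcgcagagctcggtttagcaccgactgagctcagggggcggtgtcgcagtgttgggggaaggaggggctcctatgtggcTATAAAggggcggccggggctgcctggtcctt
The AP-1 letters, searched on both strands, began 46 bases before the start of Mmp3, 63 before that of Mmp10 and 35 before that of Mmp13, and were not in the Adamts1 window. TATAAA stood in all 4 windows, 32 bases before the start in Adamts1, 29 in Mmp10, 16 in Mmp13 and 7 in Mmp3. RefSeq windows were at hand for 35 of the 57 genes (39 windows). The AP-1 letters were in 5 of these windows, those of Mmp3, Mmp10, Mmp12, Mmp13 and Adam19, and in 6.75% of all 32851 promoter windows. TATAAA was in 4 of the 39 and in 12.4% of all windows. In the cluster 8 of 10 genes held the AP-1 letters, including Mmp1a, Mmp7 and Mmp20, which had no reads in any group, and Mmp12. Of the other motifs searched on both strands, the PEA3 letters AGGAAG were in 13 member windows (29.5% of all windows), the EGR1 letters GCGNGGGCG in 5 (4.7%) and the cAMP response element TGACGTCA in 0 (1.55%). None of these motifs overlapped another within the printed windows. A match describes letters, not a bound site.

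Adamts1 had the largest log2 fold change with BDNF, under either virus, among the 23 tested members with a mean above 5 CPM. It encodes a secreted protease that cuts aggrecan and versican (ENSMUSG00000022893, chr16:85793827-85803113, minus strand). Its level was 150 and 207 CPM in BDNF and 54.5 and 56.3 CPM in Control, and 150 and 147 CPM in H2BE+BDNF and 50.5 and 51.8 CPM in H2BE. All samples with BDNF lay above all samples without it. The log2 fold change was 1.67 (SE 0.13, adjusted p = 3.75e-06) in BDNF against Control and 1.54 (SE 0.14, adjusted p = 2.12e-05) in H2BE+BDNF against H2BE.

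The 7 tested proteoglycan-cleaving ADAMTS genes did not all follow Adamts1. Under the control virus 3 were higher with BDNF, under the H2BE virus only Adamts1. Adamts5, the main aggrecanase of mouse cartilage, had 7.94 and 12.2 CPM in BDNF and 3.77 and 5.39 CPM in Control, a log2 fold change of 1.19 (SE 0.23, adjusted p = 0.000649). It had 6.8 and 8.5 CPM in H2BE+BDNF and 4.92 and 4.75 CPM in H2BE, and was not called there (0.64, SE 0.27, adjusted p = 0.0905). Adamts8 had 37.1 and 60.9 CPM in BDNF and 28.7 and 31.1 CPM in Control (log2 fold change 0.70, SE 0.19, adjusted p = 0.0178), and 27.7 and 28.1 CPM in H2BE+BDNF and 23.5 and 24.3 CPM in H2BE (0.22, adjusted p = 0.553). Omitting either Control library (adjusted p = 0.228 and 0.0971) ended the call, as did omitting any 1 of the 4 H2BE and H2BE+BDNF libraries (0.0568 to 0.0687), and its log2 fold change was 0.31 without BDNF replicate 2 and 1.02 without BDNF replicate 1. Adamts15 was not called, at 54.9 and 84.9 CPM in BDNF and 64.1 and 59.3 CPM in Control (log2 fold change 0.16, SE 0.17), and 49.7 and 51.7 CPM in H2BE+BDNF and 53.8 and 50.2 CPM in H2BE (-0.05, SE 0.20). Adamts4, Adamts9 and Adamts20 were not called either.

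In Adamts1, Adamts5, Adamts8 and Adamts15 the BDNF samples stood apart from each other. The ratio of BDNF replicate 2 to BDNF replicate 1 was 1.64 for Adamts8, 1.55 for Adamts15, 1.54 for Adamts5 and 1.37 for Adamts1. Genes that are no members went the same way. The lectican Acan had 148 CPM in BDNF replicate 1 and 261 in replicate 2, and the astrocyte glutamate transporter Slc1a3 had 27.4 and 53.1 CPM. The summed level of 7 astrocyte markers was 61.9 CPM in BDNF replicate 1 and 99.9 CPM in replicate 2. The part of this gap in the ADAMTS results was not tested. Without BDNF replicate 1, Adamts15 was called higher in BDNF than in Control (log2 fold change 0.44, adjusted p = 0.000284). The Adamts1 and Adamts5 calls were kept without either BDNF library.

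The remaining secreted ADAMTS genes that rose were of other classes. Adamts10, whose protein binds fibrillin microfibrils, had 31.6 and 27.8 CPM in BDNF and 15.7 and 14.6 CPM in Control, a log2 fold change of 0.92 (SE 0.12, adjusted p = 1.08e-05). It had 29.6 and 28.1 CPM in H2BE+BDNF and 21.5 and 21.8 CPM in H2BE, at 0.41 (SE 0.12, adjusted p = 0.0207). The H2BE+BDNF and BDNF samples overlapped, while the H2BE samples lay above the Control samples. Omitting any 1 of the libraries of the H2BE virus ended the second call, at an adjusted p of 0.136 without H2BE replicate 2, 0.0789 without H2BE replicate 3, and 0.132 and 0.0532 without H2BE+BDNF replicates 2 and 3. Adamts12, which cuts cartilage oligomeric matrix protein, had 11 and 10 counts in BDNF and 3 and 1 in Control (log2 fold change 2.06, SE 0.72, adjusted p = 0.0379). It had 11 and 4 counts in H2BE+BDNF and 7 and 8 in H2BE. With counts this low the call was lost without any 1 of the Control, BDNF or H2BE libraries (adjusted p = 0.0517 to 0.244).

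The 2 tested ADAMTS genes that process procollagen fell under both viruses. ADAMTS2, ADAMTS3 and ADAMTS14 remove the N-terminal propeptide of fibrillar procollagens, and ADAMTS3 also cuts the neuronal glycoprotein reelin. Both tested genes of the class were lower with BDNF. Adamts3 had 16.7 and 15 CPM in BDNF and 29.9 and 30.6 CPM in Control, a log2 fold change of -0.97 (SE 0.14, adjusted p = 4.19e-05). It had 14.2 and 17.9 CPM in H2BE+BDNF and 39.2 and 29.1 CPM in H2BE, at -1.13 (SE 0.15, adjusted p = 3.82e-05). Adamts2 had 1.13 and 0.409 CPM in BDNF and 2.61 and 2.43 CPM in Control (log2 fold change -1.59, SE 0.45, adjusted p = 0.0132). It had 0.596 and 0.432 CPM in H2BE+BDNF and 3.51 and 2.37 CPM in H2BE (-2.50, SE 0.57, adjusted p = 0.00362). The Adamts2 values with BDNF rest on few counts, 15 and 5 in BDNF and 5 and 3 in H2BE+BDNF. For neither gene did samples with and without BDNF overlap. Omitting BDNF replicate 2 (adjusted p = 0.121) or Control replicate 1 (0.126) ended the Adamts2 call under the control virus, and omitting H2BE replicate 2 (0.0713) that under the H2BE virus. Adamts14 had 6 counts in BDNF and 8 in Control, and 4 in H2BE+BDNF and 3 in H2BE. Among markers of fibroblasts and mural cells, Dcn was lower with BDNF as well (log2 fold change -1.45 in BDNF against Control and -0.94 in H2BE+BDNF against H2BE), and Rgs5 was higher in H2BE+BDNF than in H2BE (0.49, adjusted p = 0.0108). The collagen genes Col1a1, Col1a2 and Col3a1 were not called in either comparison. The summed level of the 8 markers was 51.3 to 61.4 CPM in BDNF and 63.9 to 75.8 CPM in Control, and 58.6 to 61.5 CPM in H2BE+BDNF and 64.5 to 85.2 CPM in H2BE. Their part in the fall of these proteases was not tested.

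Adamts17, a relative of Adamts10, fell too. It had 11.8 and 11.6 CPM in BDNF and 14 and 15.8 CPM in Control (log2 fold change -0.41, SE 0.14, adjusted p = 0.033). It had 8.71 and 9.08 CPM in H2BE+BDNF and 21.9 and 19.8 CPM in H2BE (-1.24, SE 0.16, adjusted p = 1.63e-05). The difference between these responses was -0.83 (SE 0.21) and missed the threshold (adjusted p = 0.06). It passed without BDNF replicate 1 (adjusted p = 0.028) and with the smaller library of each nested pair (0.032). The call under the control virus ended when either BDNF library (adjusted p = 0.0618 and 0.075) or either Control library (0.119 and 0.123) was omitted.

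**Figure D5:**
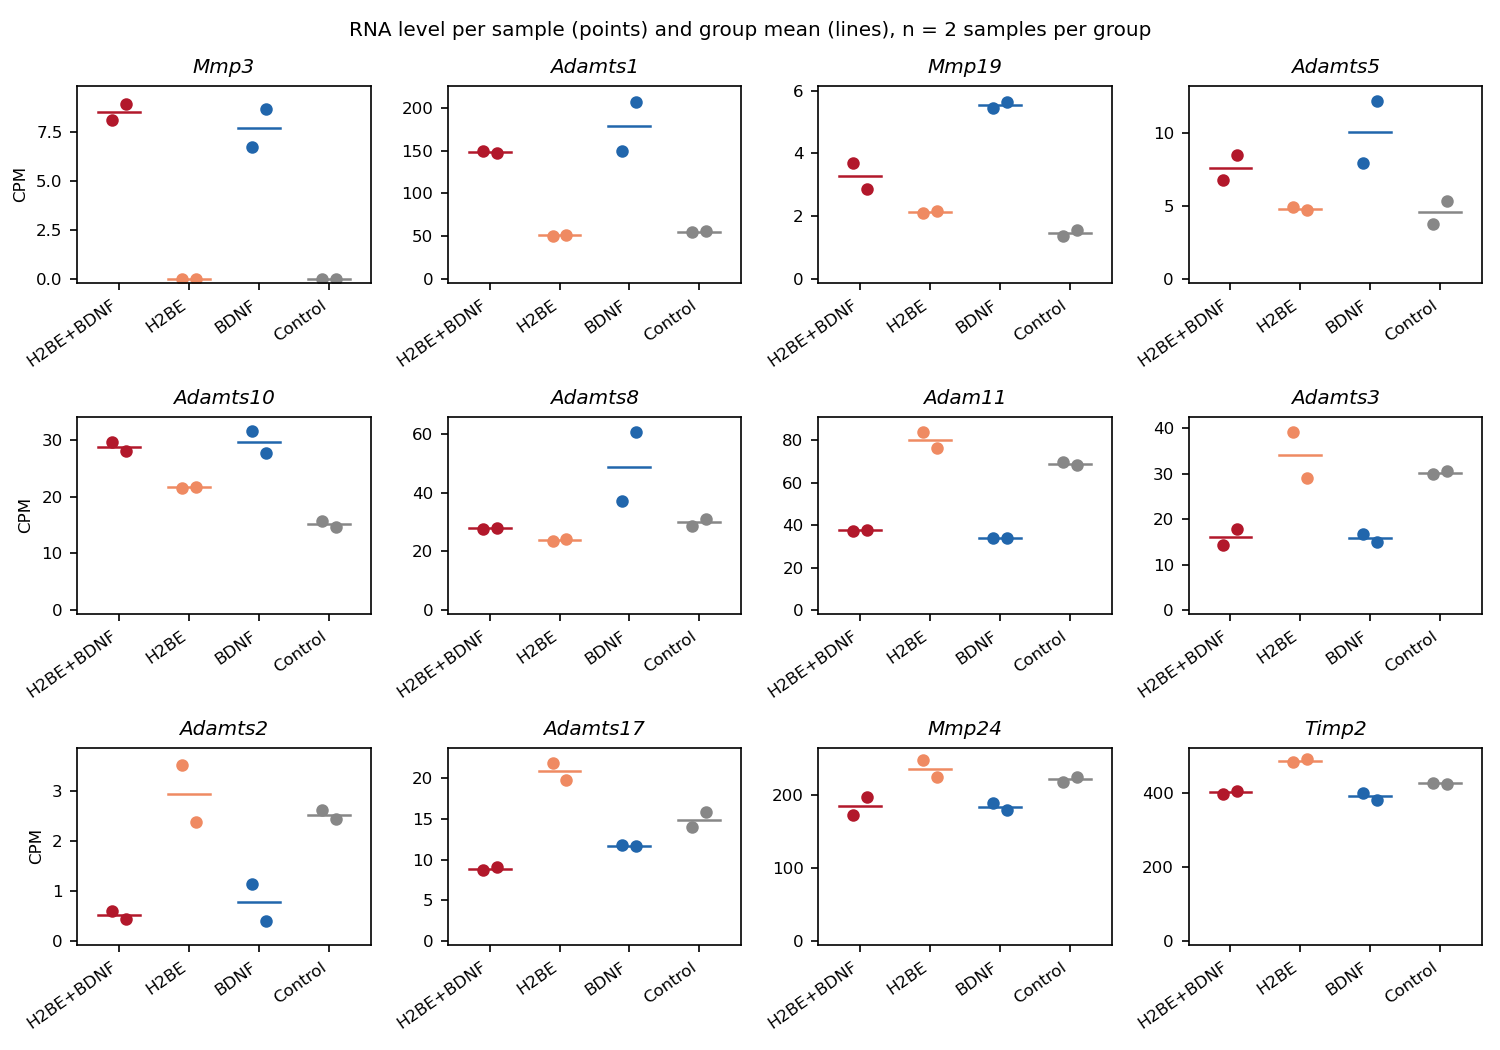
CPM of 12 members in each sample (points) with the group mean (lines), n = 2 samples per group and each axis from 0. Mmp3 is at 0 in H2BE and Control, the BDNF samples of Adamts8 (37.1 and 60.9 CPM) stand apart from each other, and Adam11, Adamts3 and Adamts2 are lower in both groups with BDNF.

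Among the tested MMPs other than Mmp3, Mmp19 rose most under the control virus. It encodes a secreted protease of basement membrane proteins. It had 5.45 and 5.64 CPM in BDNF and 1.37 and 1.56 CPM in Control, a log2 fold change of 1.92 (SE 0.29, adjusted p = 8.77e-05). Under the H2BE virus it had 3.7 and 2.88 CPM in H2BE+BDNF and 2.11 and 2.18 CPM in H2BE, at 0.63 (SE 0.34, adjusted p = 0.199). It was not called there. The difference between the responses was -1.30 (SE 0.47, adjusted p = 0.176). The exons of Tmem198b, on the opposite strand, cover 22.3% of those of Mmp19, and whether counting used strand is not given in the sources used here. Tmem198b was not called in BDNF against Control (log2 fold change 0.23, adjusted p = 0.325) and was higher in H2BE+BDNF than in H2BE (0.70, adjusted p = 0.0175).

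The membrane-type MMPs went both ways. Mmp16 (MT3-MMP) had 133 and 127 CPM in BDNF and 80.1 and 94.6 CPM in Control, a log2 fold change of 0.49 (SE 0.07, adjusted p = 2.41e-05). It had 111 and 113 CPM in H2BE+BDNF and 92.8 and 93.1 CPM in H2BE (0.26, SE 0.07, adjusted p = 0.0109). Mmp17 (MT4-MMP), held by a glycolipid anchor, had 114 and 116 CPM in BDNF and 90.5 and 86.6 CPM in Control (0.36, SE 0.07, adjusted p = 0.0012). It had 108 and 121 CPM in H2BE+BDNF and 96.9 and 84.4 CPM in H2BE (0.32, SE 0.08, adjusted p = 0.00625). Both rose with BDNF under both viruses. The calls under the H2BE virus were lost without H2BE replicate 3 (adjusted p = 0.0524 for Mmp16 and 0.0939 for Mmp17) or H2BE+BDNF replicate 3 (0.0676 and 0.0855), and that of Mmp16 also without H2BE replicate 2 (0.0849).

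Mmp24 and Mmp15 were the membrane-type genes that fell. Mmp24 had 189 and 179 CPM in BDNF and 218 and 225 CPM in Control (log2 fold change -0.30, SE 0.07, adjusted p = 0.00239). It had 172 and 197 CPM in H2BE+BDNF and 248 and 224 CPM in H2BE (-0.37, SE 0.07, adjusted p = 0.000807). These are small changes in the most abundant protease of the set, and both calls were kept under every alternative. The exons of BC029722, on the opposite strand, cover 13.6% of those of Mmp24. BC029722 had 15 and 17.6 CPM in BDNF and 21.7 and 23.8 CPM in Control and was lower with BDNF (-0.43, adjusted p = 0.0174). Mmp15 (MT2-MMP) was called only under the H2BE virus, at 48.3 and 54.0 CPM in H2BE+BDNF and 67.9 and 59.5 CPM in H2BE (-0.33, SE 0.09, adjusted p = 0.0128). It had 57.4 and 53.9 CPM in BDNF and 61.5 and 62.4 CPM in Control (-0.17, adjusted p = 0.135), and the difference between the responses was -0.16 (adjusted p = 0.566). The Mmp15 call was lost without H2BE replicate 2 (adjusted p = 0.221) or H2BE+BDNF replicate 2 (0.152). Mmp14 (MT1-MMP) was low, at 1.22 to 4.5 CPM over the samples, and was not called. The gelatinases Mmp2 and Mmp9, whose proteins are much studied at synapses, lay between 1.66 and 6.13 CPM and between 0.893 and 1.78 CPM, and neither was called in any comparison.

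In the ADAM family the clearest change was in Adam11, 1 of 3 members without catalytic activity. ADAM11, ADAM22 and ADAM23 bind the secreted LGI proteins at synapses and axons. Adam11 had 34.2 and 33.9 CPM in BDNF and 69.9 and 68.2 CPM in Control, a log2 fold change of -1.04 (SE 0.08, adjusted p = 5.43e-08). It had 37.5 and 37.7 CPM in H2BE+BDNF and 84.2 and 76.3 CPM in H2BE, at -1.10 (SE 0.09, adjusted p = 9.9e-08). The level in BDNF was thus 0.487-fold that in Control, and both calls were kept under every alternative. Adam23 went the other way under the control virus, with 139 and 152 CPM in BDNF and 106 and 113 CPM in Control (0.36, SE 0.07, adjusted p = 0.000542), and was 136 and 134 CPM in H2BE+BDNF and 130 and 133 CPM in H2BE (0.04, adjusted p = 0.757). Adam22, the main receptor of LGI1, had 160 and 178 CPM in H2BE+BDNF and 216 and 198 CPM in H2BE (-0.30, SE 0.07, adjusted p = 0.00534). It had 177 and 196 CPM in BDNF and 176 and 192 CPM in Control (-0.02, 95% interval -0.15 to 0.12). With a correction for length and GC content, the Adam23 value in BDNF against Control was 0.14 and no longer called (adjusted p = 0.0792), and Adam22 was called lower there (-0.17, adjusted p = 0.0447). The difference between the responses missed the threshold for Adam23 (-0.32, adjusted p = 0.112) and for Adam22 (-0.29, adjusted p = 0.167). The Adam22 call was lost without H2BE replicate 2 (adjusted p = 0.0848) or H2BE+BDNF replicate 2 (0.0835). Of their ligands 3 were tested, and 1 changed. Lgi3 had 3.34 and 2.45 CPM in H2BE+BDNF and 6.61 and 6.13 CPM in H2BE (-1.13, adjusted p = 0.00518), and 5.62 and 6.05 CPM in BDNF and 7.77 and 8.52 CPM in Control (-0.52, adjusted p = 0.0596).

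Of the 7 tested ADAM genes with catalytic activity, 3 were higher in BDNF than in Control. In H2BE+BDNF against H2BE 0 were called, and DESeq2 called 0. There 2 had an unadjusted p below 0.05, beside 4937 of all 13452 tested genes. Other alternatives did call genes in this comparison. Adam12 was lower with only the groups compared (adjusted p = 0.013) and with no filter on low counts (0.0371). Adam15 was higher with the length and GC correction (0.0196), and Adam19 with the crossed replicate block (0.0427). Adam19, a sheddase of neuregulins, had 64.8 and 52.7 CPM in BDNF and 36.6 and 44.3 CPM in Control (0.54, SE 0.11, adjusted p = 0.00108), and 55.7 and 61.8 CPM in H2BE+BDNF and 52.0 and 47.7 CPM in H2BE (0.22, adjusted p = 0.171). Omitting Control replicate 1 ended the call (adjusted p = 0.0666). Adam9 had 67.5 and 65.8 CPM in BDNF and 55.5 and 57.4 CPM in Control (0.20, SE 0.07, adjusted p = 0.0474), and this call was lost without any 1 of the 8 libraries (0.062 to 0.277). Adam10 had 96.1 and 97.2 CPM in BDNF and 81.5 and 88.0 CPM in Control (0.17, adjusted p = 0.0736), and 90.3 and 100 CPM in H2BE+BDNF and 86.2 and 87.2 CPM in H2BE (0.13, adjusted p = 0.24). Adam17, the sheddase of tumour necrosis factor, was not called and lay between 8.31 and 12.9 CPM. Adam15 was not called either, at 84.6 and 85.1 CPM in BDNF and 83.6 and 82.9 CPM in Control.

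Adam12 was the member whose BDNF response differed between the viruses. ADAM12 is a membrane and secreted protease that sheds growth factors. It had 11.5 and 14.6 CPM in BDNF and 7.28 and 11.0 CPM in Control (log2 fold change 0.61, SE 0.19, adjusted p = 0.0205). It had 8.83 and 9.94 CPM in H2BE+BDNF and 13.8 and 13.6 CPM in H2BE (-0.56, SE 0.21, adjusted p = 0.0587). The level was thus higher with BDNF under the control virus. The lower level with BDNF under the H2BE virus missed the threshold. The difference between the responses was -1.17 (SE 0.28, adjusted p = 0.0492), the single member called in this test, with 1.42% of all tested genes called. Omitting either H2BE+BDNF library (adjusted p = 0.154 and 0.13), either H2BE library (0.231 and 0.0947), BDNF replicate 2 (0.0638) or Control replicate 1 (0.366) ended that call. Omitting BDNF replicate 2 (0.103) or Control replicate 1 (0.522) ended the call in BDNF against Control. In the test of the difference, 9 members had an unadjusted p below 0.05 in the full set, beside 2250 of the 13452 tested genes.

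Of the 4 inhibitors only Timp2 was called. It had 400 and 382 CPM in BDNF and 427 and 425 CPM in Control (log2 fold change -0.15, SE 0.05, adjusted p = 0.0246), and 398 and 406 CPM in H2BE+BDNF and 484 and 491 CPM in H2BE (-0.28, SE 0.05, adjusted p = 0.000319). Omitting BDNF replicate 2 (adjusted p = 0.113) or either Control library (0.133 and 0.0792) ended the first call, and no alternative ended the second. Timp3, a matrix-bound inhibitor that also blocks ADAM17, had 7.97 and 9.0 CPM in BDNF and 7.75 and 8.35 CPM in Control, and 7.75 and 8.07 CPM in H2BE+BDNF and 10.3 and 9.89 CPM in H2BE (-0.36, adjusted p = 0.194). Timp4 lay between 0.9 and 2.39 CPM and was not called. Timp1 had 15 and 7 counts in BDNF and 4 and 3 in Control, and 4 and 3 in H2BE+BDNF and 5 and 3 in H2BE, too few to be tested.

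Timp1, Timp3 and Timp4 each lie inside a synapsin gene on the opposite strand. Synapsins are proteins of synaptic vesicles. The exons of Syn3 cover 21.3% of those of Timp3, those of Syn2 1.5% of those of Timp4, and those of Syn1 0% of those of Timp1. Syn1 had 394 to 467 CPM, far above Timp1, and reads from its introns cannot be told apart from those of Timp1 without strand. Syn3 was lower in H2BE+BDNF than in H2BE (log2 fold change -0.42, adjusted p = 0.0227), where the log2 fold change of Timp3 was -0.36.

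Without BDNF, 1 of 41 members (2.44%) was called in H2BE against Control, beside 2.53% of all tested genes. Of the members 11 had an unadjusted p below 0.05, beside 2454 of the 13452 tested genes. Timp2 was higher, at 484 and 491 CPM in H2BE and 427 and 425 CPM in Control (log2 fold change 0.19, SE 0.05, adjusted p = 0.0436). The call was lost without any 1 of the Control, H2BE and H2BE+BDNF libraries (adjusted p = 0.0631 to 0.328). Adamts10 had 21.5 and 21.8 CPM in H2BE and 15.7 and 14.6 CPM in Control (0.49, SE 0.13, adjusted p = 0.0575). Adam23 had 130 and 133 CPM in H2BE and 106 and 113 CPM in Control (0.25, adjusted p = 0.0695). Adam12 had 13.8 and 13.6 CPM in H2BE and 7.28 and 11.0 CPM in Control (0.69, adjusted p = 0.0841). These 3 genes missed the threshold. Fitted with only the groups compared, 7 members were called, all higher in H2BE, beside 1144 of 12693 genes.

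In the presence of BDNF, 0 of 41 members were called in H2BE+BDNF against BDNF by edgeR or by DESeq2. Over all tested genes edgeR called 0.0297%. Of the members 8 had an unadjusted p below 0.05, beside 1516 of the 13452 tested genes. Adamts8 had 27.7 and 28.1 CPM in H2BE+BDNF and 37.1 and 60.9 CPM in BDNF (log2 fold change -0.80, SE 0.20, adjusted p = 0.215). Mmp19 had 3.7 and 2.88 CPM in H2BE+BDNF and 5.45 and 5.64 CPM in BDNF (-0.69, SE 0.26, adjusted p = 0.336). Without BDNF replicate 1, Adamts1, Adamts8 and Adamts15 were called lower in H2BE+BDNF than in BDNF (log2 fold changes -0.46, -1.12 and -0.74). For Mmp3 the log2 fold change between these groups was 0.12 (SE 0.22).

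Genes that act with these proteases were followed in 9 lists. Over all tested genes 16.8% were called higher and 14.7% lower in BDNF against Control. In H2BE+BDNF against H2BE the shares were 13.5% and 12.4%. In plasminogen activation, plasmin made by tPA or uPA can activate pro-MMPs. Of 5 tested genes of this list, 4 were higher in BDNF than in Control and 2 in H2BE+BDNF than in H2BE, and 0 lower. The list holds activators and inhibitors, so these counts give no direction of the pathway. Plaur, the uPA receptor, had 1.35 and 1.47 CPM in BDNF and 0.117 and 0.174 CPM in Control (log2 fold change 3.28, adjusted p = 0.0018). The Plaur levels without BDNF were below 3 counts per library, so the size of this change is imprecise. Plat, which encodes tPA, had 31.9 and 31.5 CPM in BDNF and 17.3 and 24.7 CPM in Control (0.65, adjusted p = 0.00266). The inhibitor genes Serpine2 and Serpini1 were higher too, under both viruses (for Serpini1 0.24, adjusted p = 0.00557, and 0.32, adjusted p = 0.00101). These inhibitors were the 2 genes of the list called under the H2BE virus. There Plaur had 0.954 and 0.864 CPM in H2BE+BDNF and 0 and 0.395 CPM in H2BE (2.37, adjusted p = 0.0765), and Plat had 26.5 and 30.7 CPM in H2BE+BDNF and 20.0 and 26.5 CPM in H2BE (0.31, adjusted p = 0.176). Plau, which encodes uPA, was called under neither virus (adjusted p = 0.218 and 0.181), and Plg, the gene of plasminogen itself, had 0 counts.

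Of the 4 proprotein convertases, which remove the prodomain of many ADAM, ADAMTS and membrane-type MMP proteins, 2 were higher and 1 lower in BDNF than in Control. Furin had 48.9 and 46.1 CPM in BDNF and 33.9 and 35.8 CPM in Control (0.41, adjusted p = 0.00177). Pcsk5 was higher under both viruses (0.29, adjusted p = 0.0318, and 0.39, adjusted p = 0.0119), and Pcsk6 lower under both (-0.87, adjusted p = 0.00158, and -0.91, adjusted p = 0.00199). Of 7 tested partners that mature or carry ADAM10 and ADAM17, Tspan14, a tetraspanin that takes ADAM10 to the cell surface, fell under both viruses (-0.55, adjusted p = 0.000228, and -0.63, adjusted p = 0.000243), and Tspan17 in H2BE+BDNF against H2BE (-0.54, adjusted p = 0.011). Of the 7 γ-secretase genes, which cut the stubs that ADAM10 leaves, Psenen was lower in BDNF than in Control (-0.33, adjusted p = 0.0497) and none was called under the H2BE virus. Of the membrane regulators Reck and Bsg, Bsg was higher in H2BE+BDNF than in H2BE (0.14, adjusted p = 0.0416).

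Among the 4 lecticans, the brain proteoglycans cut by ADAMTS proteases, Vcan fell most. It had 27.6 and 35.2 CPM in BDNF and 93.6 and 98.2 CPM in Control (log2 fold change -1.67, adjusted p = 1.47e-07), and 33.4 and 28.1 CPM in H2BE+BDNF and 113 and 132 CPM in H2BE (-1.98, adjusted p = 9.9e-08). Ncan was lower in H2BE+BDNF than in H2BE (-0.32, adjusted p = 0.000606). Acan had 148 and 261 CPM in BDNF and 100 and 92.1 CPM in Control (1.07, adjusted p = 0.0562). In the ADAMTS-like group, which lacks a protease domain, Papln rose under both viruses (2.27, adjusted p = 6.42e-05, and 1.25, adjusted p = 0.0199), the single called gene of 3 tested.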

How the data were processed

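The authors deposited a table of raw counts per Ensembl gene for 10 libraries, and a table of normalized counts, a signal in which each library's counts are divided by a size factor, used here only for symbols. The submitters' processing notes name mm10, SAMtools, DESeq2 and deepTools. The aligner, counter and strand setting were not given in the sources used here. Samples were grouped by GEO's labels.

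From the counts, CPM were computed with TMM factors. The CPM of replicates 1 and 3 of Control and of BDNF were averaged as 1 sample, and the larger library of each such pair entered the tests. The edgeR 4.0.16 quasi-likelihood F test (R 4.3.3, limma 3.58.1) was fitted to the 8 distinct libraries with a mean per group, after filterByExpr (minimum count 10, minimum total 15) had kept 13452 genes. A gene counted as called where p, adjusted after Benjamini and Hochberg within each of 5 comparisons, was at most 0.05. Adjusted p-values are from edgeR unless DESeq2 (1.42.0) is named. Where samples are said not to overlap, the share of all genes without overlap was not counted. The test was first tried on simulated data. Depth limits precision: 3 counts correspond to 0.212 to 0.593 CPM, from the largest library to the smallest. Exon lengths, positions and overlaps are from GENCODE M21.

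The members and the gene lists were chosen with earlier results of these data known. 1 gene of the lists is not reported here and is left out of the counts. Named in the text are members called in any comparison, the TIMP genes, the 3 members of highest level in each protease family, and up to 4 called genes per list. Mmp2, Mmp9, Mmp14, Adam17, Adamts15 and the untested genes of the chromosome 9 cluster were added after their values were seen. Alternatives were another tool, scaling, filter, choice of libraries, a replicate block, a length and GC correction (lowess span 0.3) and leaving out each library.

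Same-numbered samples deviated from their group means with a correlation of -0.17 between BDNF and Control and -0.299 between H2BE+BDNF and H2BE, so the numbers were not taken to pair samples.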

Additional observations from a re-analysis of the deposited data

Results flagged for a closer look

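Adam12 drew attention because its BDNF response differed between the viruses in a test of the difference itself. It was -1.17 on the log2 scale (SE 0.28, adjusted p = 0.0492, edgeR). Both BDNF samples lay above both Control samples. Both H2BE+BDNF samples lay below both H2BE samples, though that change missed the threshold. The call of the difference was lost in 8 of 15 alternatives that gave a value, at -1.41 to -0.81.

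Mmp12 and Timp1 were flagged by a rule for untested members. It asked that samples with and without BDNF not overlap, in opposite directions under the control and the H2BE virus. The opposite directions are thus how they were chosen, and no result. The mean of Mmp12 was -0.679 CPM in BDNF relative to Control and 1.0 CPM in H2BE+BDNF relative to H2BE, on 4 to 19 counts per group. The difference was not tested after the filter on low counts. With the filter lifted it was 4.02 on the log2 scale (adjusted p = 0.0214), for a gene chosen by this pattern.

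Timp1 moved by 0.441 CPM in BDNF relative to Control and by -0.193 CPM in H2BE+BDNF relative to H2BE, the pattern it was chosen by. The difference was not tested, and rests on 7 to 22 counts per group.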

How the results depend on the processing

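No called member reversed its direction under any alternative. Of 34 calls of members over the 5 comparisons, 17 were kept under every alternative run and 17 were lost under at least 1. The kept ones were 10 of 19 in BDNF against Control (Mmp3, Adamts1, Adamts5, Adamts10, Adamts3, Adam11, Mmp16, Mmp17, Mmp19 and Mmp24) and 7 of 13 in H2BE+BDNF against H2BE (Mmp3, Adamts1, Adamts3, Adamts17, Adam11, Mmp24 and Timp2).

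The number of members called in BDNF against Control was 19, 11 to 18 with a library left out, 13 by DESeq2, 15 with only the groups compared, 23 with all 10 libraries and 16 with the replicate block. In H2BE+BDNF against H2BE it was 13, and 8 to 16 with a library left out. DESeq2 ended the calls of Adam9, Adam12, Adamts2, Adamts12, Adamts17 and Timp2 in the first of these and of Adamts10 and Mmp15 in the second, and the length and GC correction ended those of Adam12, Adam23 and Adamts12 in the first. Over all genes DESeq2 called 2512 where edgeR called 4228 in BDNF against Control, and 2226 where edgeR called 3484 in H2BE+BDNF against H2BE. Among members in H2BE against Control, where 1 was called, the count was 4 with no filter on low counts, 10 with all 10 libraries, 7 with only the groups compared, 0 with the replicate block, the crossed replicate block or the length and GC correction, and 0 to 6 with a library left out. In H2BE+BDNF against BDNF, where 0 were called, it was 2 with no filter (Adamts8 and Adamts15), 1 with the replicate block (Adamts8) and 0 to 3 with a library left out. For the difference of responses, where 1 was called, it was 0 by DESeq2, the crossed replicate block or the length and GC correction, 3 with no filter or the smaller library of each nested pair, 6 with all 10 libraries and 0 to 7 with a library left out.

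The crossed replicate block was chosen after seeing the data and gave 19, 14, 0, 0 and 0 calls in the 5 comparisons. With 2 samples per group and libraries of 5058074 counts or more, genes below 0.593 CPM could not be followed in every sample.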
